A study of Mus musculus with 16 samples.

Results

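The effect of transverse aortic constriction (TAC) on the heart transcriptome was measured as 8 hearts of TAC-operated mice against 8 hearts of sham-operated mice, with genotype as a second factor. TAC narrows the aortic arch so that the left ventricle pumps against a raised pressure. The sham operation is its surgical control. Arrays were assigned by surgery from their titles, and the 16 arrays used are all 16 of the series. The 8 TAC hearts comprised 4 of a conditional knockout of Zbtb17 (cKO) and 4 of control mice, and the 8 sham hearts likewise comprised 4 cKO and 4 control. All mice were males on a C57BL/6 background, aged 8 to 10 weeks before surgery, and hearts were taken 4 weeks after it. The promoter that drove the deletion, the deleted part of Zbtb17 and the alleles of the control mice are not given in the sources used here, and the cKO hearts make up the same share of both surgery groups. RNA came from the heart without a named chamber, and each array carried the RNA of 1 mouse, so that p-values measure the spread between mice.

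Pressure overload is known to make cardiomyocytes grow, to re-express fetal genes such as the natriuretic peptides and skeletal α-actin, and to drive fibroblasts to deposit collagen. Macrophages and vessels take part in this remodelling, and the balance between myocyte growth and capillary growth, for which myocytes secrete VEGF-A, is held to influence the passage to failure. Calcium handling, fatty acid oxidation and mitochondrial biogenesis genes are commonly reported to decline in overloaded hearts.

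Values were log2 expression values of 35556 probe sets, of which 21333 with a mean above the 40th percentile (4.37) were tested. For genes with several probe sets, the one of highest mean is given, which left 13670 tested genes. Array medians lay between 4.85 and 4.975, and the Spearman correlation between arrays was 0.972 to 0.987. Zbtb17 itself averaged 6.47 ± 0.08 in TAC hearts and 6.44 ± 0.13 in sham hearts (SD, n = 8 each), a log2 difference of 0.03 ± 0.055 (SE, limma adjusted p = 0.835). The probe set averaged 6.5 and 6.45 in cKO and control TAC hearts, and 6.52 and 6.36 in cKO and control sham hearts. It therefore did not mark the knockout, and without the position of the deletion it checks no label. Ventricular myocyte markers were present at a mean of 11.65 to 11.91 in TAC hearts and 11.72 to 11.95 in sham hearts.

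High Myl7 or high Atf3 set some arrays apart. Myl7, the atrial myosin light chain, was above 6 in 4 TAC arrays. These were cKO replicates 1 and 2 (6.07 and 8.83) and control replicates 1 and 2 (6.07 and 7.26). Myl7 was also above 6 in 2 sham arrays, cKO replicate 2 (8.46) and control replicate 3 (8.62). The other arrays lay between 4.3 and 5.2, so that the 2 TAC arrays at 6.07 were near the cut. The gap check in the closing section flagged Myl7 in the 2 sham arrays and in no TAC array. Leaving out the 6 arrays removes 4 of the 8 TAC hearts. The mean over 10 atrial myocyte markers ranged from 6.69 to 8.28 in TAC hearts and from 6.65 to 7.96 in sham hearts. Atf3, a stress-induced transcription factor, was at 10.18 in control sham replicate 3, at 9.58 in cKO sham replicate 1 and at 8.45 in control sham replicate 4, while the 8 TAC arrays lay between 6.15 and 6.79. Counts below are given without the 6 arrays of high Myl7, and without the 3 sham arrays of high Atf3, beside the main lists that these changed by over 1.5 times. Both array sets were chosen after their values were seen, and their part in the results was not tested.

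At an adjusted p under 0.05, no probe set was called between TAC and sham hearts, 0 of 21333 (0.0%). The smallest adjusted p was 0.0999, and 9 probe sets were under 0.1. By unadjusted p, 2569 probe sets were under 0.05, with 1545 higher (7.24%) and 1024 lower (4.8%) after TAC. Among the 13670 genes, 1078 were higher (7.89%) and 598 lower (4.37%) at that level, and 54.6% of genes had a positive difference. These shares are the background for the list counts on all 16 arrays. Leaving out the 6 arrays of high Myl7 left 974 probe sets with unadjusted p under 0.05, and leaving out the 3 sham arrays of high Atf3 left 2235. Without the high-Myl7 arrays 2.92% of genes were higher and 1.05% lower, and without the high-Atf3 arrays 6.19% were higher and 3.32% lower, and list counts without these arrays are to be read against those shares. Since no gene passed the adjusted threshold, the values below describe these 16 hearts, and none of the named genes is called changed.

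Of the 20 genes of smallest p with the same sign in both genotypes, 10 were lower after TAC. Xpo1, the main nuclear export receptor for proteins and some RNAs, ranged from 7.63 to 7.86 (median 7.76) in TAC hearts and from 7.95 to 8.20 (median 8.08) in sham hearts. Its groups did not overlap, and the log2 difference was −0.31 ± 0.053 (adjusted p = 0.0999). Rbm5, a regulator of alternative splicing, ranged from 7.58 to 8.06 (median 7.80) in TAC hearts and from 7.95 to 8.35 (median 8.22) in sham hearts. The groups overlapped slightly, with a difference of −0.40 ± 0.069 (adjusted p = 0.0999). Hnrnph1, which binds G-rich RNA and controls exon choice, was at 8.63 to 9.05 (median 8.86) in TAC hearts and 9.0 to 9.34 (median 9.16) in sham hearts, a difference of −0.31 ± 0.060 (adjusted p = 0.141). Hnrnpm, another splicing regulator, lay at 8.53 to 8.77 (median 8.68) in TAC hearts and 8.79 to 9.03 (median 8.88) in sham hearts without overlap, and differed by −0.24 ± 0.047 (adjusted p = 0.172). Each of these was lower after TAC in both genotypes, for example Xpo1 by −0.33 in cKO and −0.28 in control hearts.

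Vegfa, the main growth factor for endothelial cells, was also separated between the groups. It ranged from 9.56 to 9.88 (median 9.72) in TAC hearts and from 9.89 to 10.23 (median 9.98) in sham hearts, so that every TAC heart lay below every sham heart. The difference was −0.30 ± 0.061 (adjusted p = 0.172), a ratio of TAC over sham of 0.81, with −0.32 in cKO and −0.28 in control hearts. Tnks2, a poly-ADP-ribosyltransferase of telomere and Wnt regulation, was at 8.87 to 9.05 (median 8.97) in TAC hearts and 9.07 to 9.37 (median 9.19) in sham hearts, again without overlap and with a difference of −0.23 ± 0.048 (adjusted p = 0.189). Pde7a, a cAMP-degrading phosphodiesterase, averaged 7.32 ± 0.17 in TAC and 7.76 ± 0.22 in sham hearts (SD, n = 8 each), a difference of −0.44 ± 0.083 (adjusted p = 0.13). Its difference was −0.23 ± 0.117 in cKO and −0.66 ± 0.117 in control hearts, and without cKO sham replicate 4 its adjusted p was 0.0267, the only one of the 124 genes examined by name to pass under any alternative. Epha4, an ephrin receptor, differed by −0.55 ± 0.115 (adjusted p = 0.189) and Cdh20, a cadherin, by −0.42 ± 0.094 (adjusted p = 0.211). The remaining lower gene, 1700001C19Rik, differed by −0.36 ± 0.074 (adjusted p = 0.172). It averaged 4.36 in TAC and 4.72 in sham hearts, so that it passed the filter value of 4.37 only through its sham hearts. Cdh20 was also close to the filter, with means of 4.39 in TAC and 4.81 in sham hearts. Vegfa was at −0.19, Epha4 at −0.35 and Cdh20 at −0.20 without the 6 arrays of high Myl7.

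**Figure D1:**
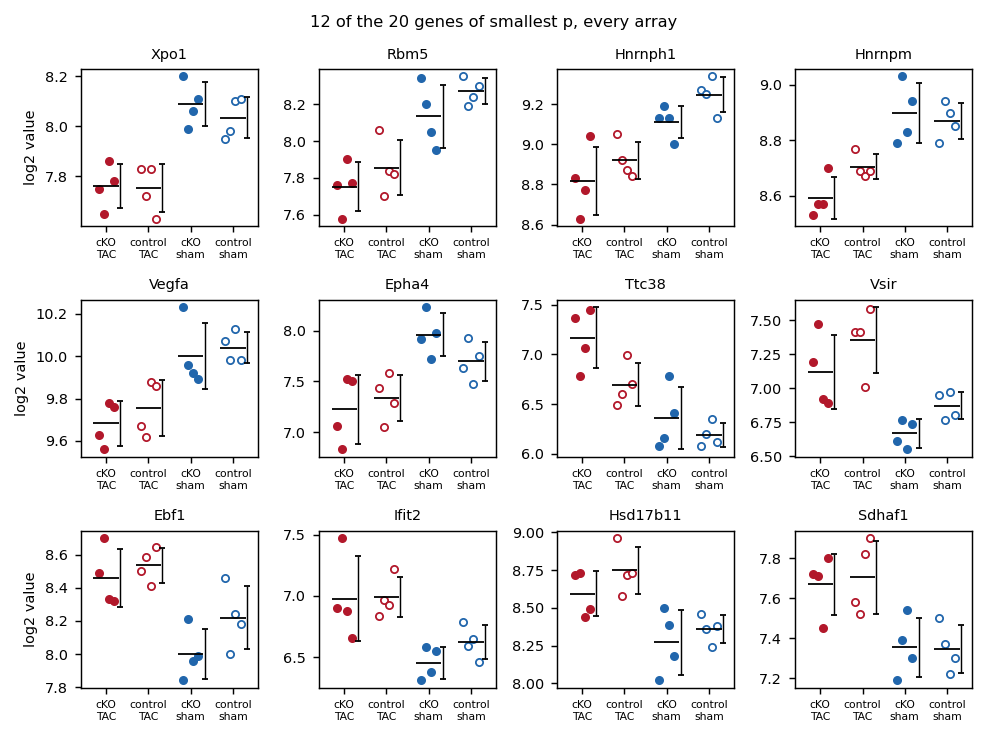
Log2 values of the genes of smallest p on every array, with cKO hearts filled and control hearts open, TAC in red and sham in blue. Lines mark the mean of 4 arrays and whiskers the SD. For Xpo1, Hnrnpm and Vegfa, all 8 TAC arrays lie below all 8 sham arrays.

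The other 10 of these genes were higher after TAC. Olfr1396, an olfactory receptor gene, had the largest difference of the 20, with 5.42 to 6.77 (median 5.85) in TAC hearts and 4.82 to 5.42 (median 4.98) in sham hearts. The groups met at 5.42, and the difference of 0.94 ± 0.159 (adjusted p = 0.0999) corresponded to a ratio of 1.92. It was 0.57 without the 6 arrays of high Myl7. The sham median of Olfr1396 lay close to the array medians of 4.85 to 4.975, the level of a typical probe set. Ttc38, a protein with tetratricopeptide repeats, was at 6.49 to 7.45 (median 6.88) in TAC hearts and 6.08 to 6.78 (median 6.18) in sham hearts, a difference of 0.66 ± 0.117 (adjusted p = 0.0999). Vsir, the immune checkpoint receptor VISTA, differed by 0.47 ± 0.094 and Ebf1, a transcription factor of B cells, adipocytes and pericytes, by 0.39 ± 0.078 (adjusted p = 0.172 for both). Ifit2, an interferon-induced antiviral protein, was at 6.66 to 7.47 (median 6.92) in TAC hearts and 6.31 to 6.79 (median 6.56) in sham hearts, a difference of 0.45 ± 0.101 (adjusted p = 0.216). H2-Q5, an MHC class I gene with close relatives that can share probes, differed by 0.38 ± 0.083 (adjusted p = 0.205). Sdhaf1, an assembly factor of respiratory complex II, differed by 0.34 ± 0.076, Aldh3b1, an aldehyde dehydrogenase, by 0.42 ± 0.084, Fez2 by 0.30 ± 0.065, and Hsd17b11, an enzyme on lipid droplets, by 0.36 ± 0.078, with adjusted p of 0.216, 0.162, 0.197 and 0.205 in that order.

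Counted over all tested probe sets, 11 had no overlap between the 8 TAC and the 8 sham arrays. Lower after TAC (0.0281%) were Xpo1, Hnrnpm, Vegfa, Tnks2, Uhrf2 and 1 probe set of Hmcn1. Higher (0.0234%) were Abcb1a, Slc25a44, Cd302, Cyb5r3 and 1 probe set with no listed gene. Abcb1a, a multidrug efflux pump of endothelial cells, averaged 7.54 ± 0.22 in TAC and 7.08 ± 0.25 in sham hearts (SD, n = 8 each), a difference of 0.46 ± 0.114 (adjusted p = 0.233). Cd302, a C-type lectin of myeloid cells, averaged 6.49 ± 0.36 in TAC and 6.04 ± 0.11 in sham hearts. Uhrf2, a reader of modified DNA, averaged 6.57 ± 0.07 in TAC and 6.81 ± 0.11 in sham hearts (adjusted p = 0.229).

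The list of splicing factors holds Hnrnph1, described above, and does not hold Xpo1, Rbm5 or Hnrnpm. Of its 22 tested members, 8 were lower at an unadjusted p under 0.05 and none was higher (36.4% lower, against 4.37% of all genes), 19 had a negative difference (45.2% of all genes had one), and the median was −0.15, against 0.01 over all genes. Hnrnpu, a nuclear matrix RNA-binding protein, averaged 9.90 ± 0.07 in TAC and 10.08 ± 0.07 in sham hearts, a difference of −0.18 ± 0.044 (adjusted p = 0.233). Tra2b, an SR-like splicing activator, differed by −0.25 ± 0.069, and Rbfox1, which controls muscle and neuronal exons, by −0.45 ± 0.139 (adjusted p = 0.233 and 0.253). The mean of the list per array was 8.74 to 8.92 (median 8.86) in TAC hearts and 8.92 to 9.04 (median 8.99) in sham hearts, with all 8 TAC arrays below the lowest sham array before rounding. Without the 6 arrays of high Myl7 the median was −0.11 with 1 member lower, and without the 3 arrays of high Atf3 it was −0.13 with 5 lower, where 1.05% and 3.32% of all genes were lower. Rbfox1 was at −0.24 without the high-Myl7 arrays and Tra2b at −0.14 without the high-Atf3 arrays.

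**Figure D2:**
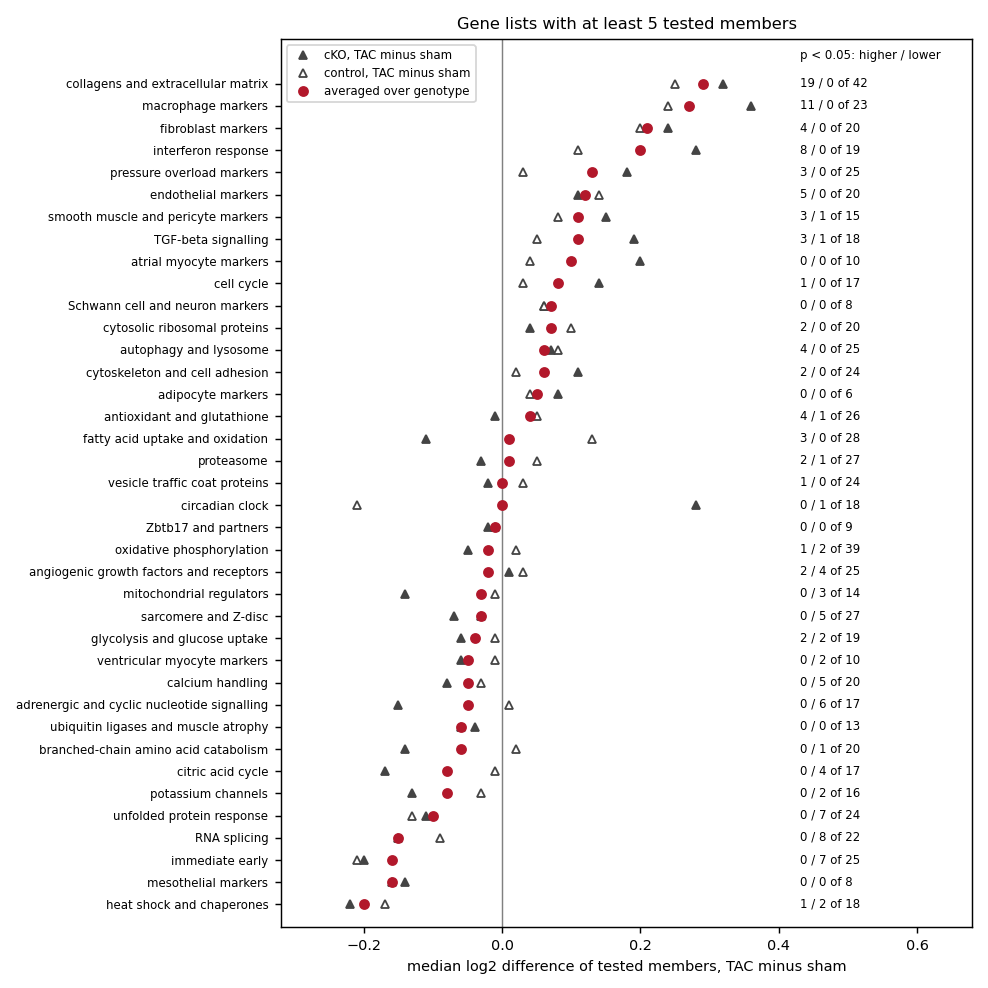
Median log2 difference, TAC minus sham, over the tested members of each gene list, averaged over genotype (red circles) and within cKO (filled triangles) and control hearts (open triangles). Numbers at the right count the members with unadjusted p under 0.05, higher and lower, of those tested. Matrix, macrophage, fibroblast and interferon lists stand at the top (medians 0.29 to 0.20) and heat shock, mesothelial, immediate early and splicing lists at the bottom (−0.20 to −0.15).

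The classical markers of pressure overload spread widely within both groups, and none passed the adjusted threshold. Nppa, the atrial natriuretic peptide, was at 9.86 to 13.27 (median 12.28) in TAC hearts and 11.17 to 12.26 (median 11.84) in sham hearts, a difference of 0.17 ± 0.348 (adjusted p = 0.879). The lowest and the highest values both belonged to TAC hearts, and the difference was 0.48 in cKO and −0.13 in control hearts. Nppb, the B-type natriuretic peptide, averaged 11.18 ± 0.74 in TAC and 11.36 ± 0.45 in sham hearts (adjusted p = 0.846). Acta1, skeletal α-actin, was at 9.31 to 12.65 (median 11.20) in TAC hearts and 9.83 to 11.55 (median 10.02) in sham hearts, a difference of 0.87 ± 0.408 (adjusted p = 0.414). In 4 TAC hearts it exceeded every sham heart, and in 1 TAC heart, control TAC replicate 1, it lay below all of them. That array also held the lowest values of Nppa (9.86), Nppb (9.94) and Ccn2 (8.36). Its mean over the list of 25 overload markers was the lowest too, at 8.46, against 8.53 to 9.31 in sham hearts. Its Postn (8.60) and Myh7 (8.84) lay within the sham ranges of 7.24 to 9.18 and 8.31 to 11.40. Without this array Nppa differed by 0.47 and Nppb by 0.02. Why this heart was low was not tested. Myh7, the slow β-myosin heavy chain, averaged 10.18 ± 0.74 in TAC and 9.84 ± 0.87 in sham hearts (adjusted p = 0.749). Myh6, the adult α-myosin heavy chain, averaged 13.16 ± 0.18 in TAC and 13.28 ± 0.14 in sham hearts, and Atp2a2, the calcium pump SERCA2, 13.42 ± 0.12 in TAC and 13.49 ± 0.09 in sham hearts (adjusted p = 0.549 and 0.572). Nppa was at 0.29, Myh7 at 0.57, Acta1 at 0.53 and both Myh6 and Atp2a2 at −0.03 without the 6 arrays of high Myl7. Of the 25 members of the overload list, 3 were higher and none lower at an unadjusted p under 0.05 (7.89% of all genes were higher), with a median of 0.13 that became −0.01 without the 6 arrays of high Myl7 and 0.27 without the 3 of high Atf3.

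**Figure D3:**
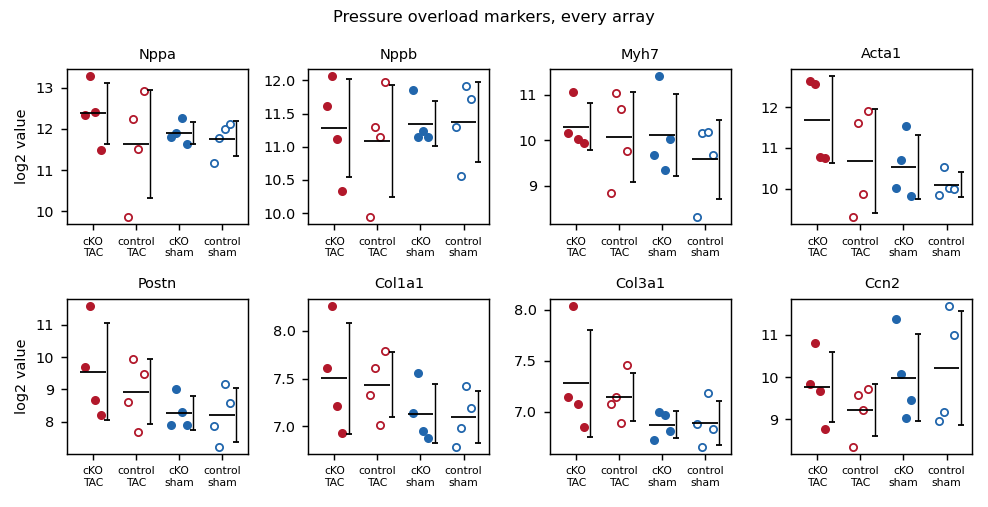
Log2 values of 8 pressure overload markers on every array, cKO filled and control open, TAC in red and sham in blue, with the mean of 4 arrays and the SD. The TAC hearts spread over a wider range than the sham hearts for Nppa, Acta1 and Postn, and the groups overlap in every panel.

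Extracellular matrix genes had mostly positive differences. Of 42 tested members, 40 had a positive difference and 19 were higher at an unadjusted p under 0.05, with none lower (45.2% against 7.89%), and the median was 0.29, with 0.32 in cKO and 0.25 in control hearts. Postn, the matricellular protein periostin made by activated fibroblasts, was at 7.70 to 11.58 (median 9.07) in TAC hearts and 7.24 to 9.18 (median 8.10) in sham hearts. Its value in 4 TAC hearts was above that of every sham heart, and the difference was 0.99 ± 0.451 (adjusted p = 0.397). Timp2, an inhibitor of metalloproteinases, was at 8.70 to 9.75 (median 9.08) in TAC hearts and 8.51 to 9.01 (median 8.68) in sham hearts, a difference of 0.36 ± 0.124 (adjusted p = 0.291). The matrix glycoprotein Fbln1 differed by 0.51 ± 0.181, the proteoglycan Lum by 0.53 ± 0.194, Col3a1 by 0.33 ± 0.143 and Col1a1 by 0.35 ± 0.176, with adjusted p of 0.295, 0.312, 0.376 and 0.434.

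The matrix list was highest mostly in arrays of high Myl7. Its mean per array was 7.22 to 8.41 (median 7.63) in TAC hearts and 7.10 to 7.76 (median 7.36) in sham hearts, and 4 of the 5 highest arrays (cKO TAC replicates 1 and 2, control TAC replicate 2 and control sham replicate 3) had Myl7 above 6. The second highest, control TAC replicate 4 (7.83), had Myl7 at 4.39. Control TAC replicate 1 and cKO sham replicate 2, also with Myl7 above 6, were at 7.50 and 7.70. Without the 6 arrays of high Myl7 the median was 0.20, 35 members were positive and 5 were higher at an unadjusted p under 0.05 (background 2.92% higher), with Postn at 0.55 and Lum at 0.35. Without the 3 sham arrays of high Atf3 the median was 0.42 and 18 were higher.

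Hmcn1, a large hemicentin of the basement membrane, had negative differences, as did Thbs1 and Lama2 of the matrix list, and was picked after its values were seen. The array carries 76 tested probe sets for it, and each had a difference at or below 0, from −0.38 to −0.0, with 48 at an unadjusted p under 0.05. Its probe set of highest mean was at 7.89 to 8.62 (median 8.27) in TAC hearts and 8.47 to 8.98 (median 8.54) in sham hearts, a difference of −0.36 ± 0.093 (adjusted p = 0.233). With the mean of all its probe sets the difference was −0.21 (adjusted p = 0.206). These probe sets read 1 gene and are not independent, and the 48 are among the 1024 lower probe sets counted above.

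Fibroblast markers also had mostly positive differences. In bulk heart RNA, a change in the number of cells of a type and a change in RNA per cell cannot be told apart. This holds for every cell type list, in either direction. Of 20 tested fibroblast markers 18 were positive, 4 were higher and none lower at an unadjusted p under 0.05, and the median was 0.21. Pi16, a marker of adventitial fibroblasts, differed by 0.62 ± 0.183, Ddr2, a collagen receptor, by 0.30 ± 0.098 and Pdgfra by 0.26 ± 0.112 (adjusted p = 0.245, 0.268 and 0.383). Pi16 was at 0.40 and Pdgfra at 0.15 without the 6 arrays of high Myl7. In the TGF-beta list, 3 of 18 were higher and 1 lower, and its member of smallest p was the inhibitory Smad6, at 6.29 to 6.63 (median 6.44) in TAC hearts and 6.16 to 6.37 (median 6.2) in sham hearts, a difference of 0.23 ± 0.059 (adjusted p = 0.233). Without the high-Myl7 arrays 2 TGF-beta genes were higher and 0 lower, and without the high-Atf3 arrays 4 were higher and 0 lower. Ccn2, a TGF-beta and mechanical stretch target, averaged 9.49 ± 0.74 in TAC and 10.09 ± 1.11 in sham hearts (adjusted p = 0.601), a difference of −0.60 ± 0.435 that was 0.20 without the 3 arrays of high Atf3.

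Macrophage markers had positive differences throughout. All 23 tested members had a positive difference, 11 were higher at an unadjusted p under 0.05 with none lower (47.8% against 7.89%), and the median was 0.27, with 0.36 in cKO and 0.24 in control hearts. C1qa, which with C1qb and C1qc forms complement C1q and is made by tissue macrophages, was at 7.0 to 7.84 (median 7.27) in TAC hearts and 6.56 to 7.31 (median 6.84) in sham hearts, a difference of 0.48 ± 0.125 (adjusted p = 0.233). C1qb differed by 0.53 ± 0.161, C1qc by 0.56 ± 0.177 and the lysosomal glycoprotein Cd68 by 0.50 ± 0.150. The list mean per array was 6.41 to 7.19 (median 6.61) in TAC hearts and 6.21 to 6.79 (median 6.38) in sham hearts, with cKO TAC replicate 2 and control TAC replicate 4 the highest at 7.19 and 7.18. Without the 6 arrays of high Myl7, 21 of 23 were positive with a median of 0.19, and 1 was higher at an unadjusted p under 0.05, with C1qb and C1qc both at 0.35. Markers of lymphocytes, neutrophils and mast cells were mostly below the filter: 4 of 20 were tested, with a median of 0.05 and none at an unadjusted p under 0.05.

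Interferon-response genes had mostly positive differences, also without the arrays set apart. Of 19 tested, 17 were positive and 8 were higher at an unadjusted p under 0.05, with none lower (42.1%), and the median was 0.20, with 0.28 in cKO and 0.11 in control hearts. Without the 6 arrays of high Myl7, 6 were higher with a median of 0.18, and without the 3 of high Atf3, 8 were higher with a median of 0.27. Ifit3, an antiviral protein, was at 6.62 to 8.29 (median 7.24) in TAC hearts and 6.48 to 6.99 (median 6.85) in sham hearts, a difference of 0.61 ± 0.194 (adjusted p = 0.264). Rsad2, the antiviral enzyme viperin, differed by 0.47 ± 0.134, Irf7, the regulator of type I interferon genes, by 0.44 ± 0.149, and Oas1a, an activator of RNase L, by 0.37 ± 0.116 (adjusted p = 0.236, 0.283 and 0.26). Interferon-stimulated genes are known for a promoter element bound by IRF and STAT factors. Its core, GAAA followed after any 2 bases by GAAA, was searched on both strands in 250 bases before each start (RefSeq, GRCm38.p6). It was in 8 of the 16 list members with a window, against 2.98% of 32851 windows. A member counted if any of its windows matched, while the background is per window, so that these shares are unlike measures. Of these 8, Ifit3, Rsad2 and Oas1a were higher at an unadjusted p under 0.05, and B2m, Bst2, Gbp3, Ifit1 and Stat2 were not under that p. The other list members higher at that p, among them Ifit2, were not among those with a match. A link between the element and the differences was not tested. Ifit3 and Rsad2 are shown as examples, 60 bases each, with the match in capitals, and in both the match lies on the strand opposite to the gene, so that it reads TTTC, 2 bases, TTTC. Ifit3 lies on the plus strand at chr19:34583348-34583407 and Rsad2 on the minus strand at chr12:26456538-26456597.
Ifit3: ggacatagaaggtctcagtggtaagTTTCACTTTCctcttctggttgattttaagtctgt
Rsad2: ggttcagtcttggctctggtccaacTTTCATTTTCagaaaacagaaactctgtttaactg

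Vascular lists were higher by less. Of 20 endothelial markers 18 were positive and 5 were higher at an unadjusted p under 0.05 with none lower (25.0%), with a median of 0.12 that became 0.04, with none under that p, without the 6 arrays of high Myl7. Emcn, a sialomucin of capillaries and veins, differed by 0.34 ± 0.106 and Tek, the angiopoietin receptor, by 0.26 ± 0.090 (adjusted p = 0.259 and 0.295). Smooth muscle and pericyte markers had a median of 0.11, with 3 of 15 higher and 1 lower (none in either direction without the 6 arrays), and Cspg4, the pericyte proteoglycan NG2, differed by 0.20 ± 0.062 (adjusted p = 0.26). Growth factors and receptors of vessels went both ways, 2 of 25 higher and 4 lower, with a median of −0.02 (none higher and 2 lower without the 6 arrays of high Myl7, 2 higher and 1 lower without the 3 of high Atf3). Vegfc, the lymphatic growth factor, was at 6.31 to 6.78 (median 6.58) in TAC hearts and 5.97 to 6.52 (median 6.26) in sham hearts, a difference of 0.34 ± 0.094 (adjusted p = 0.233), opposite in sign to Vegfa. Igf1 differed by 0.43 ± 0.179, and Angpt2, which destabilises vessels, by −0.31 ± 0.123 (adjusted p = 0.365 and 0.337). Vegfc was at 0.21 and Igf1 at 0.26 without the 6 arrays of high Myl7, and Vegfc was at 0.20, Emcn at 0.22 and Angpt2 at −0.19 without the 3 of high Atf3.

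Stress-response genes had mostly negative differences, and the 3 sham arrays of high Atf3 held the highest means of these lists. Of 25 immediate early genes 23 were negative and 7 lower at an unadjusted p under 0.05, with none higher (against 4.37% of all genes), and the median was −0.16. Dusp1, a phosphatase that switches off MAP kinases, was at 8.64 to 9.46 (median 8.95) in TAC hearts and 9.12 to 9.73 (median 9.43) in sham hearts, a difference of −0.38 ± 0.104 (adjusted p = 0.233). Jun differed by −0.56 ± 0.182, Fos by −0.29 ± 0.096 and Atf3 by −1.28 ± 0.535 (adjusted p = 0.272, 0.272 and 0.361). Without the 3 sham arrays of high Atf3 these were −0.18, −0.16 and −0.17 in the same order. For Atf3 a smaller difference was fixed in advance, since these arrays were picked by its own value. Genes high in the same arrays are affected by that choice too. The list mean was 6.28 to 6.70 (median 6.42) in TAC hearts and 6.22 to 7.17 (median 6.61) in sham hearts. Without the 3 sham arrays of high Atf3 the median was −0.02 and 2 were lower (background 3.32%), and without the 6 arrays of high Myl7 it was −0.07 with 1 lower (background 1.05%).

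Chaperone genes likewise had mostly negative differences. Heat shock genes had 14 of 18 negative and a median of −0.20, with 2 lower and 1 higher, and the median was 0.02, with 3 higher and none lower, without the 3 arrays of high Atf3. Without the 6 arrays of high Myl7 the median was −0.14, with 0 lower and 1 higher. Hsph1, a cytosolic HSP110, was at 6.90 to 7.91 (median 7.53) in TAC hearts and 7.24 to 9.12 (median 7.97) in sham hearts, a difference of −0.70 ± 0.256 (adjusted p = 0.31), and its 3 highest values were in the same 3 sham arrays, without which it was at −0.21. Hspb6, a small heat shock protein of muscle, was higher by 0.24 ± 0.073 (adjusted p = 0.257).

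Genes of the unfolded protein response of the endoplasmic reticulum had 22 of 24 negative and 7 lower at an unadjusted p under 0.05, with none higher (29.2%) and a median of −0.10, which was 0.00 without the 3 arrays of high Atf3, with 1 lower, and −0.11 without the 6 of high Myl7, again with 1 lower. Hspa5, the chaperone BiP, was at 10.72 to 11.06 (median 10.84) in TAC hearts and 10.73 to 11.57 (median 11.22) in sham hearts, a difference of −0.34 ± 0.089 (adjusted p = 0.233). Manf, a secreted stress protein, differed by −0.34 ± 0.107, Hsp90b1, the chaperone GRP94, by −0.19 ± 0.071, and Pdia6, a disulphide isomerase, by −0.25 ± 0.098 (adjusted p = 0.26, 0.321 and 0.335). Without the 3 arrays of high Atf3 the differences were −0.20 for Hspa5, −0.17 for Manf, −0.09 for Hsp90b1 and −0.10 for Pdia6. Promoters of such genes are known for the endoplasmic reticulum stress element, CCAAT followed after any 9 bases by CCACG, which NF-Y and ATF6 bind. It was found, on either strand in 250 bases before the start, in 7 of 21 list members with a window, against 0.113% of 32851 windows. Here too a member counted if any of its windows matched, while the background is per window. Of these 7, Hspa5, Hsp90b1, Pdia6 and Dnajc3 were lower at an unadjusted p under 0.05, while Calr, Canx and Creld2 had unadjusted limma p of 0.669, 0.123 and 0.0802. Manf was also lower at an unadjusted p under 0.05 and was not among the 7. A link between the element and the differences was not tested. Hspa5, Hsp90b1 and Pdia6 are shown as examples, 60 bases each with the match in capitals. They lie with Hspa5 on the plus strand at chr2:34772005-34772064, Hsp90b1 on the minus strand at chr10:86705617-86705676 and Pdia6 on the plus strand at chr12:17266471-17266530 (GRCm38.p6).
Hspa5: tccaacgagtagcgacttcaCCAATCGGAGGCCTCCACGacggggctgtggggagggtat
Hsp90b1: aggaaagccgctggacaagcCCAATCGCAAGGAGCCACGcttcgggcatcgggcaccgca
Pdia6: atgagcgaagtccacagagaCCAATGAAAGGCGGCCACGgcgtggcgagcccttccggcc

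**Figure D4:**
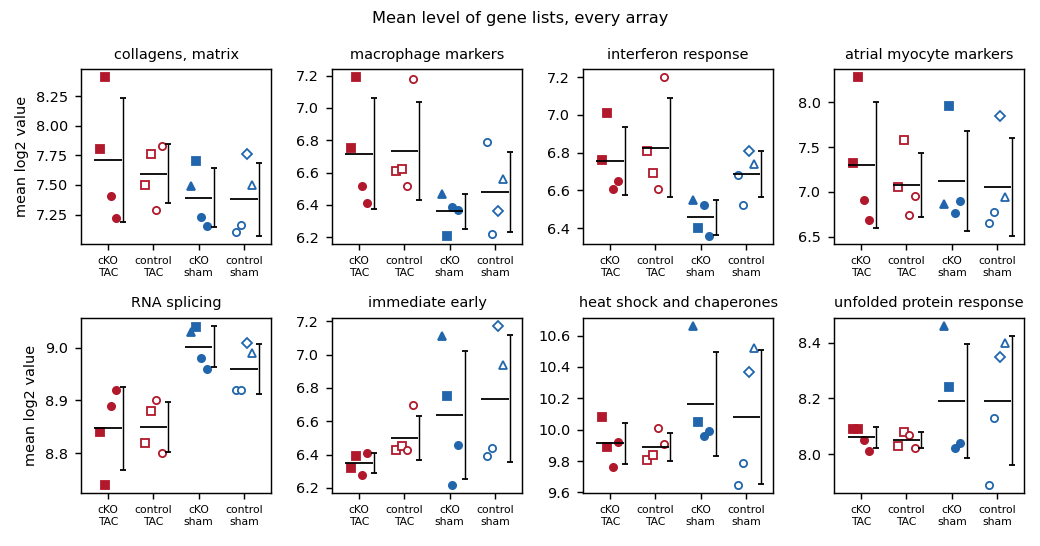
Mean log2 value of the tested members of gene lists on each array, cKO filled and control open, TAC in red and sham in blue, with the mean and SD of 4 arrays. Triangles mark sham arrays with Atf3 above 8, squares arrays with Myl7 above 6 and the diamond control sham replicate 3, which has both. The marked sham arrays top the immediate early and chaperone lists, while in the splicing list all 8 TAC arrays lie below the sham arrays.

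Lists of myocyte genes had small negative medians, with members of both signs. In the calcium handling list 5 of 20 were lower and none higher at an unadjusted p under 0.05 (25.0% against 4.37%), with a median of −0.05. Cacna2d1, the α2δ subunit of the L-type calcium channel, was at 9.84 to 10.38 (median 10.02) in TAC hearts and 9.99 to 10.54 (median 10.41) in sham hearts, a difference of −0.33 ± 0.078 (adjusted p = 0.229). The pore subunit Cacna1c differed by −0.29 ± 0.102 and Ryr2, the calcium release channel, by −0.26 ± 0.112 (adjusted p = 0.291 and 0.372). In the list of adrenergic and cyclic nucleotide signalling 6 of 17 were lower (35.3%), among them Adcy6 by −0.29 ± 0.091 and Adcy5 by −0.20 ± 0.070, both cardiac adenylyl cyclases (adjusted p = 0.264 and 0.29). Kcnd2, a transient outward potassium channel, differed by −0.42 ± 0.168 (adjusted p = 0.341), with 2 of 16 potassium channels lower and a median of −0.08. Sarcomere and Z-disc genes had 5 of 27 lower (18.5%) with a median of −0.03, led by titin, Ttn, at −0.27 ± 0.092 (adjusted p = 0.281). The M-band protein Myom2 was at −0.40 ± 0.139 (adjusted p = 0.293). Without the 6 arrays of high Myl7, and without the 3 of high Atf3, 1 calcium gene and 1 sarcomere gene were lower, and for the adrenergic list 3 and 4. No potassium channel was lower without either set, with medians of 0.01 without the high-Myl7 arrays and −0.10 without the high-Atf3 arrays. Without the high-Myl7 arrays Kcnd2 was at −0.21, Ryr2 at −0.14 and Myom2 at −0.15.

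Metabolic lists lay near 0 on average, with lower medians in cKO than in control hearts, and no member passed the interaction test (smallest adjusted p 1.0). In the citric acid cycle list 16 of 17 were negative and 4 lower at an unadjusted p under 0.05 (23.5%), with a median of −0.08, of which −0.17 was measured in cKO and −0.01 in control hearts. Idh3g, a subunit of isocitrate dehydrogenase, averaged 12.07 ± 0.09 in TAC and 12.21 ± 0.08 in sham hearts, a difference of −0.14 ± 0.047 (adjusted p = 0.276), and Sdha, of complex II, differed by −0.19 ± 0.078 (adjusted p = 0.365). Without the 6 arrays of high Myl7 the median was −0.01, none was lower and Sdha was at −0.08. Among mitochondrial regulators 3 of 14 were lower: Ppargc1a, the coactivator PGC-1α, by −0.43 ± 0.159, the nuclear receptor Esrrg by −0.27 ± 0.101 and Ppara, the fatty acid sensor, by −0.35 ± 0.136 (adjusted p = 0.314, 0.311 and 0.332). None of the 14 was lower at that p without either set of arrays, with Ppargc1a at −0.20 and −0.23 and Ppara at −0.20 both times. Fatty acid genes had 3 of 28 higher and a median of 0.01, with a positive difference for 7 of 28 in cKO and 27 of 28 in control hearts (medians −0.11 and 0.13). Over all genes the positive share was 51.0% in cKO and 56.7% in control hearts. Averaged over genotype, 15 of the 28 fatty acid genes were positive on all arrays. Without the high-Myl7 arrays 24 were, with a median of 0.08 and 4 higher. Without the high-Atf3 arrays 17 were positive, with a median of 0.02 and 2 higher. Fabp3, the heart fatty acid binding protein, differed by 0.04 ± 0.054 in cKO and 0.23 ± 0.054 in control hearts. Oxidative phosphorylation had 1 of 39 higher and 2 lower, with a median of −0.02, and branched-chain amino acid catabolism 1 of 20 lower with a median of −0.06. Without the high-Myl7 arrays 0 were lower in both lists.

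Averages over genotype can hide opposite values, and the circadian clock list showed the widest such split. Its median was 0.00, with 0.28 in cKO and −0.21 in control hearts, and 14 of 18 members were positive in cKO against 1 of 18 in control hearts. No member passed the interaction test (smallest adjusted p 1.0). Per3, a clock repressor, averaged 6.93 ± 0.18 in cKO TAC and 6.06 ± 0.46 in cKO sham hearts, and 6.38 ± 0.50 in control TAC and 6.64 ± 0.49 in control sham hearts (SD, n = 4 each). The interaction for Per3 was 1.13 ± 0.383 (adjusted p = 1.0), and Clock differed by −0.40 in cKO and −0.01 in control hearts.

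Of the other lists, antioxidant genes had 4 of 26 higher and 1 lower (median 0.04), with the extracellular superoxide dismutase Sod3 at 0.44 ± 0.133 and the glutathione transferase Gsta3 at 0.30 ± 0.075 (adjusted p = 0.25 and 0.233), and Sod3 was at 0.29 without the 6 arrays of high Myl7. Autophagy and lysosome genes had 4 of 25 higher (median 0.06), led by the lysosomal protein Ctsa at 0.14 ± 0.048. Without the high-Myl7 arrays 2 of them were higher, and likewise 2 without the high-Atf3 arrays. Cytosolic ribosomal proteins were positive in 19 of 20 by small amounts (median 0.07), with 2 higher (0 without the high-Myl7 arrays, 1 without the high-Atf3 arrays). Cytoskeleton and adhesion genes had 2 of 24 higher (median 0.06), including the tubulin Tubb5 at 0.26 ± 0.077. Without the high-Myl7 arrays 0 were higher, and without the high-Atf3 arrays 4 were. Glycolysis had 2 of 19 higher and 2 lower, the proteasome 2 of 27 higher and 1 lower, and vesicle coats and the cell cycle 1 higher each, with medians of −0.04, 0.01, 0.00 and 0.08. Over all genes 7.89% were higher and 4.37% lower, and shares such as the 7.41% of the proteasome lay near that. Without the high-Myl7 arrays the counts higher were 1, 0, 1 and 2 in the same order. Without the high-Atf3 arrays they were 1, 4, 3 and 0. Ubiquitin ligases, Zbtb17 partners, Schwann cell and neuron, adipocyte, mesothelial, atrial and red blood cell lists had no member at an unadjusted p under 0.05, with medians from −0.16 to 0.10. Without the high-Myl7 arrays 2 adipocyte markers were higher and 2 mesothelial markers lower. Without the high-Atf3 arrays 1 mesothelial marker and 1 ubiquitin ligase gene were lower. Ventricular myocyte markers had 2 of 10 lower and a median of −0.05 (0 lower without the high-Myl7 arrays, 1 without the high-Atf3 arrays).

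Whether TAC acted alike in both genotypes was examined through the interaction, for which 0 of 21333 probe sets passed (0.0%, smallest adjusted p 0.759) and 790 had an unadjusted p under 0.05 (3.7%). The cKO and the control comparison share no arrays. Over the 21333 probe sets their differences had the same sign in 60.2%, with a correlation of 0.25 across probe sets, which are not independent replicates. At an unadjusted p under 0.05, 1447 probe sets were listed in cKO hearts (6.78%) and 1774 in control hearts (8.32%). Of these, 233 were in both lists with the same sign, 16.1% of the cKO list and 13.1% of the control list. Of the cKO list 77.5% had the same sign in control hearts, and of the control list 71.9% had it in cKO hearts. Among the named genes, Cope, a coat protein of Golgi vesicles, had the smallest interaction p, with −0.06 ± 0.059 in cKO and 0.31 ± 0.059 in control hearts (adjusted p = 1.0).

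**Figure D5:**
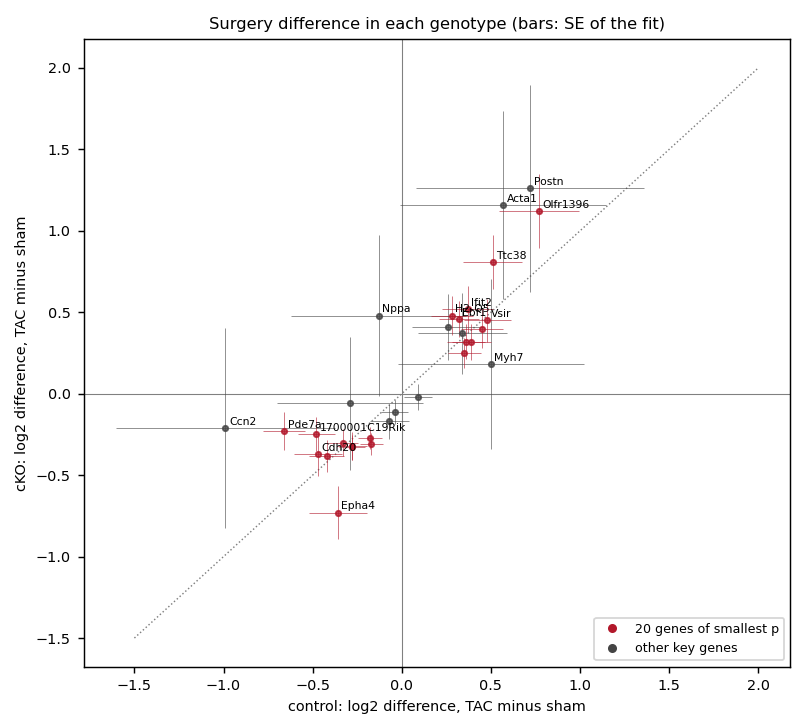
Log2 difference, TAC minus sham, in cKO hearts against that in control hearts, with SE bars, for the 20 genes of smallest p (red) and the other key genes (grey). The dotted line marks equal differences. The 20 genes share a sign in both genotypes because they were chosen so, while Nppa has 0.48 in cKO and −0.13 in control hearts.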

How the data were processed

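RNA of 16 hearts was hybridised to Affymetrix arrays. The authors deposited log2 values with 2 decimals for 35556 probe sets. The log base was read from the values, and the submitters' processing notes name MAS5. How arrays were scaled to each other is not given in the sources, and scaling would hide a change common to every gene. The number of arrays limits the precision.

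Gene names came from the platform annotation, checked by Entrez ID against RefSeq (21698 probe sets matched). Of all probe sets 21789 have 1 symbol, 1621 have several and 12146 are unlisted. Probe sets without a single symbol were tested but not named. They made up 29.6% of those tested and 37 of the 100 with the smallest p.

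Tests used limma 3.58.1 in R 4.3.3 with 4 group means, 12 residual degrees of freedom, a trended prior variance (eBayes), two-sided p and Benjamini-Hochberg adjustment over 21333 probe sets. The surgery difference is the mean of the 2 genotypes' differences, and ± with a difference is its SE. The code was tested on simulated data. Lists are described by counts and medians, without a test.

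The comparison, its lists and the key genes were chosen with earlier results of these data known. The naming rule took 12 key genes, the 20 of smallest p with 1 sign in both genotypes, and the member of smallest p of each list. Other named genes were chosen after their values were seen. Replicate numbers did not pair the arrays: deviations of same-numbered arrays correlated at a median of −0.03, against 0.02 for other pairs. Alternatives are given in the closing section.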

Additional observations from a re-analysis of the deposited data

Results flagged for a closer look

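Within the groups of 4 arrays, the highest or lowest array of a named gene was checked for a gap to its neighbour above Dixon's critical share of the range. This held for 22 of 496 groups examined, in 18 of 124 genes, where chance gives about 1 in 20 groups. In cKO sham replicate 1, Nppb was at 11.85, Hsph1 at 9.02, Hsp90aa1 at 11.38, Ryr2 at 11.99 and Angpt2 at 5.69. In cKO sham replicate 2, Myl7 was at 8.46 and Cilp, a cartilage matrix protein made by fibroblasts, at 5.66, and in control sham replicate 3 Myl7 was at 8.62 and Cilp at 5.90. In cKO sham replicate 4, Fez2 was at 8.15 and Cdkn2c at 6.08, and in control sham replicate 1 Idh3g was at 12.02. Among TAC arrays, cKO replicate 1 had Angpt2 at 4.70 and Hmcn1 at 7.89, cKO replicate 2 had Gsta3 at 5.91 and Irf7 at 6.42, cKO replicate 3 had Dusp1 at 8.64, and cKO replicate 4 had Ier5 at 5.36. Control TAC replicate 1 had Vegfc at 6.78, and control TAC replicate 4 had Hsp90b1 at 10.22, Cd302 at 6.46 and Cdkn2c at 6.42.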

How the results depend on the processing

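No probe set passed the adjusted threshold under 10 of the 11 planned settings other than leaving out arrays. Counts at an unadjusted p under 0.05 ranged from 1787 to 3811, against 2569 of 21333 probe sets in the main fit. The 3811 were counted with no filter, over all 35556 probe sets. The 1787 were counted over genes, with the probe sets of each gene averaged. These counts have different totals and cannot be compared directly. With no filter 1 passed, Mir122, lower by 0.58 on the log2 scale (−0.58, adjusted p = 0.00984). With each array left out in turn, 0 to 1 passed, with 0 to 1 higher and 0 to 1 lower: Pde7a at −0.51 without cKO sham replicate 4 (adjusted p = 0.0267), and 1 unlisted probe set each without control TAC replicate 4 (adjusted p = 0.0375) and control sham replicate 1 (adjusted p = 0.000467). Without the 6 arrays of high Myl7, which leaves 2 TAC arrays of each genotype, the count at an unadjusted p under 0.05 was 974. The fit with a replicate block called 0, with 2514 at an unadjusted p under 0.05 and a smallest adjusted p of 0.147. Numbers do not pair these arrays, and 3 of 16 correlated best with their own number. Of 3584 gene values under alternatives, 20 in 7 genes changed sign. Without the 3 sham arrays of high Atf3, Nppb was at 0.13, Ccn2 at 0.20, Calr at 0.04, and Plin4 and Creld2 at 0.0. Myl7 was at −0.59 with array weights and −0.33 without its 6 arrays. With 1 array left out, signs changed for Nppa (lowest −0.04, highest 0.47), Nppb (−0.32 to 0.02), Calr (−0.06 to 0.0) and Myl7 (−0.45 to 0.51). The cause was not tested. Among list medians, those without the high-Atf3 arrays were 0.02 for heat shock (−0.20 on all arrays), −0.02 for immediate early (−0.16) and 0.00 for unfolded protein response genes (−0.10), and those without the high-Myl7 arrays were −0.01 for overload markers (0.13) and −0.01 for the citric acid cycle (−0.08). Few arrays, the unknown normalization and the arrays set apart limit the comparison.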

Other observations

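Several genes outside the lists lay among the smallest p, and were chosen here after their values were seen. Cybb, the catalytic subunit of the phagocyte NADPH oxidase, was at 7.19 to 8.16 (median 7.50) in TAC hearts and 6.51 to 7.54 (median 6.82) in sham hearts, a difference of 0.67 ± 0.157 (limma adjusted p = 0.229). Cd200, a ligand that restrains myeloid cells, was at 7.77 to 8.75 (median 8.33) in TAC hearts and 7.33 to 8.37 (median 7.70) in sham hearts, a difference of 0.60 ± 0.144 (adjusted p = 0.233). For both genes the difference was positive in each genotype, 0.77 in cKO and 0.57 in control hearts for Cybb and 0.74 in cKO and 0.46 in control hearts for Cd200. Ahr, the aryl hydrocarbon receptor, averaged 6.96 ± 0.18 in TAC and 6.57 ± 0.19 in sham hearts (SD, n = 8 each), and Cdkn2c, a cell cycle inhibitor, averaged 6.23 ± 0.14 in TAC and 5.90 ± 0.15 in sham hearts (adjusted p = 0.229 and 0.233). Their differences were 0.40 and 0.32. Without the 6 arrays of high Myl7, Cybb and Cd200 were both at 0.42, Ahr at 0.23 and Cdkn2c at 0.32. Without the 3 sham arrays of high Atf3, Cybb was at 0.58, Cd200 at 0.40, Ahr at 0.31 and Cdkn2c at 0.33.

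Among probe sets below the filter on low values, Mir122 had the only adjusted p under 0.05 when no filter was set. It was at 3.54 to 3.81 (median 3.68) in TAC hearts and 3.90 to 4.68 (median 4.22) in sham hearts, without overlap. All TAC arrays and the sham median lay below the filter value of 4.37, and only the upper end of the sham range lay above it. The probe set is not part of the counts in the results.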
